A study of Mus musculus with 2 samples.

Results

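The miR-106b-25 and miR-106a-363 clusters are groups of miRNA hairpins that lie close together on 1 strand and are paralogs of the Mir17 cluster (Mir17 to Mir92-1). Their members were taken by gene symbol from the GENCODE M21 annotation, and no measured value enters that rule. They are 9 of the 2202 miRNA genes in the files: Mir106b, Mir93 and Mir25 in the first cluster, and Mir106a, Mir18b, Mir20b, Mir19b-2, Mir92-2 and Mir363 in the second. Small RNA was sequenced from adrenal glands of 14-day-old B6CASTF1/J males, an F1 hybrid strain, in 1 group of 2 libraries numbered biological replicates 1 and 2. The mice carried no treatment or engineered allele in the labels. The biosample of each library names 3 males, both biosamples share 1 donor record, and the sources used here do not say whether animals were pooled. There is no second condition, so the data answer how much of each member the young gland held and how far the libraries differed.

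A miRNA gene is transcribed as a hairpin, which Drosha and Dicer cut to a short mature RNA that guides Argonaute to target mRNAs. Pairing rests mainly on the seed, bases 2 to 8 of the mature RNA, so miRNAs with the same seed share most targets. The Mir17 cluster and its paralogs are known as promoters of cell growth and survival, with Cdkn1a and Bcl2l11 among the mRNAs they repress. Mcm7, the host of the miR-106b-25 cluster, encodes a subunit of the helicase that opens DNA for replication. Loss of the Mir17 cluster is lethal to newborn mice, whereas mice without the other clusters are viable.

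The mature RNAs show why 9 genes fall into 4 seed groups, so they are printed here from RefSeq (GRCm38.p6), 5′ to 3′, with the seed in capitals. All 9 members had a RefSeq entry. The 4 members with the miR-17 seed come first, 2 of them from each cluster.
miR-106b-5p: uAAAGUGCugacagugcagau
miR-93-5p: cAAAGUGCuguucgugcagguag
miR-106a-5p: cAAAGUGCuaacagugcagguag
miR-20b-5p: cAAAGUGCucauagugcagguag
The miR-25 seed is carried by Mir25 of the first cluster and by Mir92-2 and Mir363 of the second.
miR-25-3p: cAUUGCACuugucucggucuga
miR-92a-3p: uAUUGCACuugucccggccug
miR-363-3p: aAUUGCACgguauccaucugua
The miR-18 and miR-19 seeds have 1 member each, Mir18b and Mir19b-2, both of the second cluster.
miR-18b-5p: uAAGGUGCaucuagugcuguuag
miR-19b-3p: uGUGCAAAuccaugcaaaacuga

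Outside the seed some of these RNAs are nearly copies of Mir17 cluster products, which bears on how reads can be assigned. The products of Mir17 and Mir20a are shown for comparison.
miR-17-5p: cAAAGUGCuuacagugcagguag
miR-20a-5p: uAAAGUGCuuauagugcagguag
Counted from 1 at the 5′ end, with the base of the first-named RNA first, miR-17-5p and miR-106a-5p differ by U10A alone over 23 bases. From miR-20a-5p to miR-20b-5p the changes are U1C and U10C, and from miR-18a-5p to miR-18b-5p they are A18U and A20U. The mature arms of Mir19b-2 and Mir19b-1 are identical over 23 bases, and those of Mir92-2 and Mir92-1 over 21. Mir93 stands further off, with U10G, A11U, C12U and A13C from miR-17-5p, and miR-25-3p differs from miR-92a-3p at 3 of 21 bases. The longest stretch of the main arm found in another annotated miRNA hairpin was 10 bases for Mir93, Mir106b and Mir363, 12 for Mir25, 13 for Mir106a and Mir20b and 17 for Mir18b.

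On mm10 the miR-106b-25 cluster spans 498 bases of the minus strand of chromosome 5, from 138165321 to 138165818. Mir106b, Mir93 and Mir25 follow in the direction of transcription, with 118 to 126 bases between hairpins. All 3 lie in an intron of 2 Mcm7 transcripts, and 1 further Mcm7 transcript, annotated as a retained intron, covers Mir93 and Mir25 with its exon. The miR-106a-363 cluster spans 875 bases of the minus strand of the X chromosome, from 52741693 to 52742567, in the order Mir106a, Mir18b, Mir20b, Mir19b-2, Mir92-2 and Mir363. Mir106a overlaps an exon of the non-coding Kis2 by 5 bases, and the other 5 hairpins lie in no other annotated gene. The Mir17 cluster, on the plus strand of chromosome 14 from 115043671 to 115044506, is covered by an exon of the non-coding Mir17hg.

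Depth was 3024662 sense miRNA counts in replicate 1 and 3464837 in replicate 2, so 1 count was 0.331 and 0.289 counts per 1000000 miRNA counts of the library (CPM). Members had 0 counts on the opposite strand. Reads that map to several places, 27.5% and 29.4% of the files, are in no gene. Of marker miRNAs, the neuroendocrine list, which marks the medulla, held 3.11% and 3.42% of counts with 3 of 3 members detected. Of 5 striated muscle markers, 1 was detected and 3 were at 0. A 0 can also arise where a miRNA's reads fit more than 1 gene equally well, so these values do not settle muscle content. No miRNA marker of the cortex was fixed. Arms were not separated, and CPM were compared between genes without scaling by length, since each read is 1 short RNA. Differences in how well each RNA is captured were not measured. The smallest p that an exact two-sided test over 2 libraries can give is 0.5, so levels carry a mean and SD (n = 2) and no test. Intervals are at 95% and cover counting error only.

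The Mcm7 intron cluster was expressed at a high and nearly equal level in both libraries. Its summed level was 7862 CPM in replicate 1 and 7980 in replicate 2, or 7921 ± 82.9 CPM. This is 0.786% of counts in replicate 1 (exact binomial interval 0.776 to 0.796) against 0.798% in replicate 2 (0.789 to 0.807). Mir93, whose product has the miR-17 seed, led it with 5499 CPM in replicate 1 and 5631 in replicate 2. Its mean of 5565 ± 93.6 CPM put it at rank 34 of the 2202 genes. Mir106b, of the same seed, was at 1913 and 1845 CPM, or 1879 ± 48.0, at rank 56. Mir25, the member with the miR-25 seed, was at 450 and 503 CPM, or 476 ± 37.3, at rank 112. The order Mir93, Mir106b, Mir25 held in both libraries, with gaps far above the SD of each.

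The proportions within this cluster were also close in both libraries. Mir93 made up 69.9% of the cluster's counts in replicate 1 and 70.6% in replicate 2, or 70.3% ± 0.446. Mir106b gave 24.3% and 23.1%, and Mir25 gave 5.72% and 6.30%. Mir93 was 2.87 times Mir106b in replicate 1 (exact interval 2.79 to 2.96) and 3.05 times in replicate 2 (2.97 to 3.14). It was 12.2 times Mir25 (11.6 to 12.9) and 11.2 times (10.7 to 11.8). Thus hairpins of 1 host intron differed more than 10-fold in counts, and the ratios moved little between libraries.

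By counted reads the X-linked cluster was far lower, and it differed between libraries. Its summed level was 317 CPM in replicate 1 and 197 in replicate 2, or 257 ± 84.6 CPM. The miR-106b-25 cluster exceeded it 24.8-fold in replicate 1 (23.2 to 26.5) and 40.4-fold in replicate 2 (37.5 to 43.7). Mir92-2 and Mir19b-2 share their mature arms with Mir92-1 and Mir19b-1, and reads that fit both equally well are in no gene. The X-linked sum may therefore be too low and these folds too high. Detection, set at 2 CPM or more in both libraries, was met by 7 of the 9 members: all 3 of the first cluster and 4 of the 6 X-linked ones. Mir18b and Mir19b-2 did not meet it.

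Among the X-linked members with the miR-17 seed, Mir106a was at 121 CPM in replicate 1 and 58.0 in replicate 2, or 89.3 ± 44.3. Mir20b was at 125 and 60.6 CPM, or 92.8 ± 45.5. Mir106a and Mir20b, which have Mir18b between them, did not differ beyond counting error. Mir20b was at 1.04 times Mir106a in replicate 1 (0.894 to 1.20) and 1.04 times in replicate 2 (0.857 to 1.27). By mean level Mir106a and Mir20b held ranks 192 and 191, just under the genes of 100 CPM or more.

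Of the X-linked members with the miR-25 seed, Mir92-2 was at 48.9 and 35.8 CPM, or 42.4 ± 9.29. Mir363, the last hairpin of the cluster, was at 19.5 and 39.5 CPM, or 29.5 ± 14.2. Mir92-2 was 2.51 times Mir363 in replicate 1 (1.84 to 3.45) and 0.905 times in replicate 2 (0.704 to 1.16). The ratio fell, but in replicate 2 their order was within counting error. The whole mature arm of Mir92-2 stands in the hairpin of Mir92-1 within a common stretch of 22 bases. Reads that fit both places equally well are in no gene, so the level of Mir92-2 may be too low.

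The lowest members rested on a handful of counts. Mir18b had 6 counts in replicate 1 and 7 in replicate 2, or 1.98 and 2.02 CPM. Mir19b-2 had 3 and 5 counts, or 0.992 and 1.44 CPM, beside 0.992 and 0.866 CPM for the limit of 3 counts. Mir18b exceeded Mir19b-2 by 2.00 times (0.427 to 12.4) and 1.40 times (0.382 to 5.59), so their order was not detectable at this depth. Mir19b-2 shares a stretch of 25 bases with Mir19b-1 that holds its whole mature arm, so its count may be too low.

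**Figure D1:**
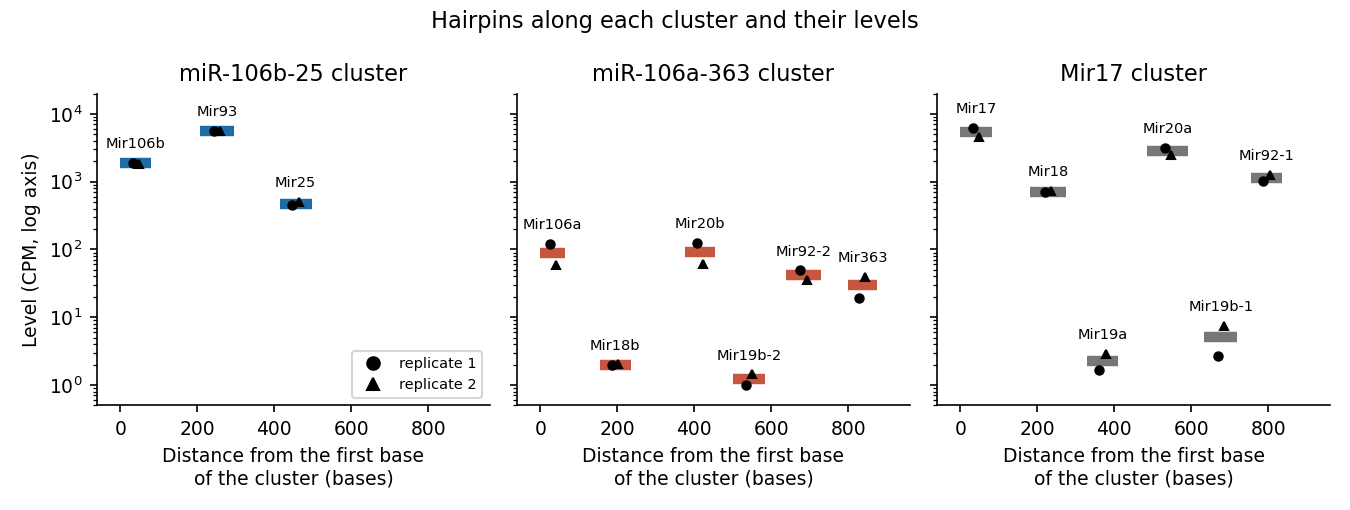
Level in CPM (log axis) against distance in bases from the first base of each cluster, in the direction of transcription. Bars mark each hairpin's extent at its mean, circles replicate 1 and triangles replicate 2. Mir93 tops the miR-106b-25 cluster at 5565 CPM. By counted reads Mir106a and Mir20b top the miR-106a-363 cluster near 90 CPM. The miR-18 and miR-19 hairpins of the X-linked cluster sit near 1 to 2 CPM. Reads that fit more than 1 gene equally well are left out, so the genes of miR-92a-3p and miR-19b-3p may be too low.

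Each of the 413 genes with at least 10 counts was compared between the libraries by a conditional binomial test (exact, two-sided), with Benjamini-Hochberg adjustment over these genes and a threshold of 0.05. It compares these libraries, not conditions. Of 8 members tested, 6 differed, 3 higher and 3 lower in replicate 2, while 55.4% of all tested genes differed, 28.8% higher and 26.6% lower. The members' median log2 ratio was -0.01, against 0.03 over all tested genes. With unstranded counts, in which the median over all tested genes shifted to -0.14, 1 member was higher and 5 lower, and all tested genes split into 74 higher and 139 lower instead of 119 and 110. Mir19b-2 had too few counts to be tested.

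In the miR-106b-25 cluster the differences were small. Mir93 was 1.02-fold higher in replicate 2 (1.00 to 1.05), with an adjusted p of 0.0451 by the exact binomial test. This call ended under edgeR's TMM scaling, at 1.01-fold, and with a filter of 1 count or more over both libraries, which tests more genes and gave an exact adjusted p of 0.0798. With unstranded counts Mir93 was lower, at a ratio of 0.932. Mir25 was 1.12-fold higher (1.04 to 1.20), with an adjusted p of 0.00506 by the same exact test, and did not pass with unstranded counts, at 1.02. For Mir106b the ratio was 0.965 (0.931 to 1.00), which did not pass, with an adjusted p of 0.0788 by the exact test. It was lower with TMM, at 0.947, and with unstranded counts, at 0.878. Of the 189 genes of 100 CPM or more, whose median difference was 1.25-fold in either direction, 7.41% differed by less than Mir93, 12.2% by less than Mir106b and 27.5% by less than Mir25.

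In the miR-106a-363 cluster members moved in opposite directions. Mir106a was 2.08-fold lower in replicate 2 (1.75 to 2.48), with an adjusted p of 6.76e-17 by the exact binomial test. Mir20b was 2.06-fold lower (1.74 to 2.45), with an adjusted p of 3.29e-17 by the same exact test. Mir92-2 was 1.37-fold lower (1.07 to 1.75), with an exact adjusted p of 0.0209, and did not pass when Mir122 was left out of the total, at a ratio of 0.767. Mir363 was 2.03-fold higher (1.48 to 2.80), with an exact adjusted p of 8.12e-06. Mir18b, at 1.02 (0.293 to 3.67), did not pass. The calls of Mir106a, Mir20b and Mir363 held with unstranded counts, TMM, DESeq2's size factors and the total without Mir122.

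**Figure D2:**
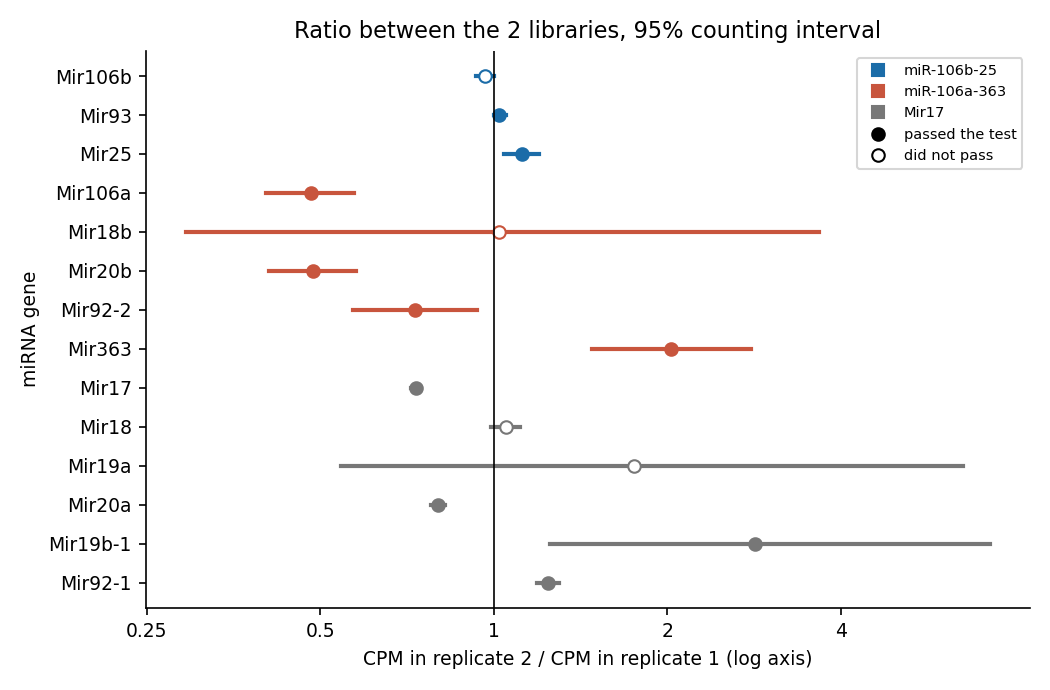
Ratio of CPM in replicate 2 to replicate 1 (log axis) for each tested gene of the 3 clusters, with 95% exact counting intervals. Filled points passed the exact binomial test and open points did not. Mir106a and Mir20b lie near 0.48 and Mir363 at 2.03, while the miR-106b-25 members lie between 0.965 and 1.12. With unstranded counts Mir93 falls below 1, at 0.932.

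Ratios within a library do not depend on its total, and they show the same shift. Mir363 was 0.162 times Mir106a in replicate 1 (0.121 to 0.213) and 0.682 times in replicate 2 (0.544 to 0.851), with intervals that do not overlap. Against Mir20b it was 0.156 times (0.117 to 0.206) and 0.652 times (0.522 to 0.813). The share of Mir363 in its cluster was 6.15% in replicate 1 (4.72 to 7.86), against 20.0% in replicate 2 (17.1 to 23.2). Mir106a went from 38.1% to 29.4% and Mir20b from 39.4% to 30.7% of the cluster, and their ratio to each other stayed at 0.966 and 0.957. Reads of Mir92-2 and Mir19b-2 that fit another gene equally well are missing from the cluster's sum. The shares of Mir363, Mir106a and Mir20b may therefore be too high. Markers of other cells also differed between the libraries. In replicate 2 the 1 endothelial marker was lower, from 15.6% to 9.47% of counts. So were 4 of 5 white blood cell markers, with the list going from 0.488% to 0.261%, while Mir223 was higher, at a ratio of 2.88. The erythroid markers went from 4.40% to 1.92% in sum. Mir451a and Mir486 were lower, at ratios of 0.409 and 0.639, while Mir144, at 0.980, did not pass. The mesenchymal and smooth muscle markers went from 5.24% to 4.46% in sum. Mir143 was lower, at a ratio of 0.849, and Mir145a, at 0.998, did not pass. Of the kidney and epithelial markers, 3 of 4 were higher, while Mir200c was lower, at a ratio of 0.522. Their sum went from 0.0834% to 0.172%. Mir122, the hepatocyte marker, went from 0.379% to 4.95%. Their part in the members' differences was not tested, and in bulk tissue fewer cells of a type and less RNA per cell cannot be told apart.

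**Figure D3:**
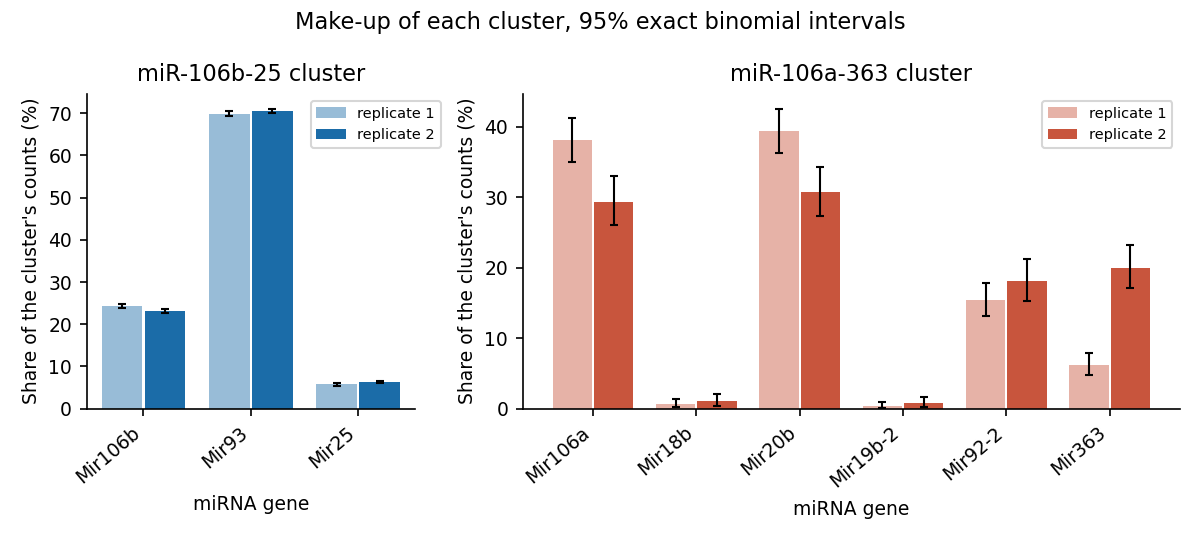
Share of each cluster's counts (%) held by each member, pale bars for replicate 1 and dark bars for replicate 2, with 95% exact binomial intervals. The miR-106b-25 cluster kept nearly the same make-up, with Mir93 at 69.9% and 70.6%, while Mir363 went from 6.15% to 20.0% of the miR-106a-363 cluster. Shares of the miR-106a-363 cluster leave out reads of Mir92-2 and Mir19b-2 that fit another gene equally well.

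Beside their paralogs on chromosome 14, the clusters took very different places. The Mir17 cluster reached 11122 CPM in replicate 1 and 9114 in replicate 2, which was 1.41 times the miR-106b-25 cluster in replicate 1 (1.39 to 1.44) and 1.14 times in replicate 2 (1.12 to 1.16). Mir93 was 0.878 times Mir17 in replicate 1 (0.860 to 0.897) and 1.23 times in replicate 2 (1.20 to 1.25), so their order changed. Mir17 itself went from 6260 to 4593 CPM. Mir25 was 0.440 times Mir92-1 (0.413 to 0.469) and 0.396 times (0.374 to 0.419), lower than its paralog in both libraries. Reads of the arm that Mir92-1 shares with Mir92-2 can be missing from its count.

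By counted reads, each X-linked hairpin with a counterpart in the Mir17 cluster was far below it, except that counts were too few for Mir19b-2. For Mir92-2 and Mir19b-2, reads that fit the counterpart equally well are in no gene, so only reads told apart were compared. Mir106a was 1.93% of Mir17 in replicate 1 (1.73 to 2.14) and 1.26% in replicate 2 (1.09 to 1.45). Mir20b was 3.98% of Mir20a (3.58 to 4.41) and 2.41% (2.09 to 2.77). Mir92-2 was 4.79% of Mir92-1 (4.03 to 5.65) and 2.82% (2.34 to 3.37), and Mir18b was 0.285% of Mir18 (0.104 to 0.621) and 0.276% (0.111 to 0.570). Mir19b-2 was 37.5% of Mir19b-1 in replicate 1, from 3 and 8 counts (6.41 to 156), and 19.2% in replicate 2, from 5 and 26 counts (5.77 to 50.9). Since Mir106a differs from Mir17 by 1 base in the main arm, whether reads of 1 were counted for the other was not tested. The percentage of Mir106a to Mir17 was not constant between the libraries.

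The miR-19 seed was at low levels in both clusters that carry it, and the miR-106b-25 cluster has no such member. In the Mir17 cluster Mir19a, at 2.27 ± 0.872 CPM, and Mir19b-1, at 5.07 ± 3.44, were the lowest genes. In the X-linked cluster Mir19b-2 was at 1.22 ± 0.319 CPM, in an order with Mir18b that the counts could not settle. Mir19a shares no stretch of 20 bases with another annotated hairpin. Of the 6 genes of the Mir17 cluster, 2 were higher, 2 lower and 2 did not pass by the exact test: Mir92-1 rose 1.24-fold and Mir19b-1 rose 2.84-fold in replicate 2, while Mir17 and Mir20a fell 1.36-fold and 1.25-fold. Mir18, at 713 ± 24.6 CPM, and Mir19a did not pass. So at the library totals of sense counts Mir106a, Mir20b, Mir17 and Mir20a, which have the miR-17 seed, were lower in replicate 2, whereas Mir93, with the same seed, was higher and Mir106b did not pass. For Mir93 and Mir106b this depended on the scaling, as given above, with Mir106b lower under TMM.

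Summed over genes, the miR-17 seed was supplied by the Mcm7 intron and the Mir17 cluster in similar parts. Its 7 measured genes reached 17058 CPM in replicate 1 and 14699 in replicate 2, or 15879 ± 1668 CPM. The miR-106b-25 cluster gave 43.5% and 50.9% of it, the miR-106a-363 cluster 1.44% and 0.807%, and the Mir17 cluster 55.1% and 48.3%. Mir6383, the seventh gene, had 0 counts in both libraries, below the limit of 3 counts given above. The complementary arms of Mir106a, Mir20b and Mir17 share a seed as well, but no reads were divided between arms.

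The miR-25 seed reached 1635 and 1956 CPM, or 1795 ± 227 CPM, over 7 genes. Mir25 gave 27.5% and 25.7% of it, Mir92-2 and Mir363 together 4.19% and 3.85%, and Mir92-1 gave 62.5% and 64.9%. The rest came from Mir32 at 82.6 ± 9.73 CPM and Mir92b at 18.8 ± 0.378, while Mir367 had 0 counts. By counted reads Mir32 lay above Mir363 and Mir92-2 in both libraries. Reads that fit Mir92-1 and Mir92-2 equally well are in no gene. The level of the miR-25 group may therefore be too low and the share of Mir25 too high. Mir18 supplied 99.7% of the miR-18 seed in each library and Mir18b the rest. The miR-19 seed was at 8.56 ± 4.63 CPM in all, of which Mir19b-2 gave 18.8% and 12.2%. Reads that fit Mir19b-1 and Mir19b-2 equally well can be missing from this sum.

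**Figure D4:**
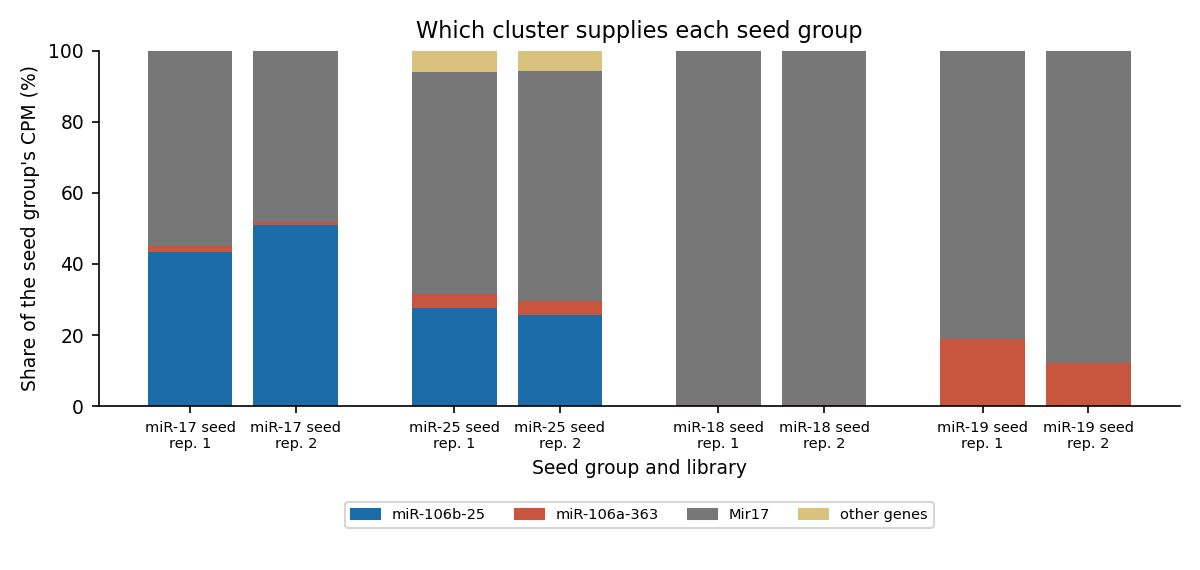
Share (%) of the summed CPM of each seed group supplied by each cluster, 1 bar per library. The miR-106b-25 cluster gives 43.5% and 50.9% of the miR-17 seed, and the miR-106a-363 cluster gives under 5% of every group except miR-19, whose total is 8.56 CPM. Shares of the miR-25 and miR-19 groups leave out reads that fit 2 genes equally well.

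Among the 189 genes of 100 CPM or more, those nearest to a member in both libraries were found by the distance in log2(CPM + 1) over 2 libraries, a description of level only. Nearest to Mir93 were Mir151 at 6404 ± 351 CPM, Mirlet7e at 6095 ± 1200 and Mir17. Nearest to Mir106b were Mir144 at 2073 ± 28.9 CPM, Mir324 at 2109 ± 60.1 and Mir361 at 2122 ± 3.04. Nearest to Mir25 were Mir130b at 465 ± 25.1 CPM, Mir672 at 472 ± 73.4 and Mir671 at 458 ± 19.3.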

How the data were processed

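Per library, the authors deposited a file of raw read counts for annotated miRNA genes, with mm10 and GENCODE M21 named in the deposited notes. Aligner and counter: not given in the sources used here; deposited files have 3 count columns (either strand, sense, opposite strand) for 2202 genes, and the sense column was used. Summary rows name no gene and were left out. Sense counts over genes were 42.2% and 40.9% of the reads in the files.

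All 2202 identifiers matched GENCODE M21, and 1032 had a RefSeq miRNA entry (GRCm38.p6). CPM are counts scaled to the sum over miRNA genes of a library. Each gene with 10 or more counts over both libraries was compared by a conditional binomial test (exact, two-sided), with Benjamini-Hochberg adjustment over all such genes at 0.05. EdgeR's quasi-likelihood test could not be fitted, since there is no contrast. Intervals are exact (Clopper-Pearson for shares, conditional for ratios) at 95%. PCR copies are not independent, so these intervals hold counting error alone. The files do not separate the parental alleles of the hybrid.

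The named genes are the 9 members, the 6 genes of the Mir17 cluster, up to 3 further genes per seed, the 3 genes nearest in level to Mir93, Mir25 and Mir106b, and Mir122. Members, lists and tests were chosen with earlier results of these data known. Marker lists covered neuroendocrine, endothelial, erythroid, white blood, hepatocyte, mesenchymal, striated muscle and kidney or epithelial cells. Alternatives were unstranded counts, other totals and scalings, other filters and limits, and each library alone. Scaling factors came from edgeR 4.0.16 and DESeq2 1.42.0 in R 4.3.3. Tests used SciPy 1.17.1 in Python 3.11.15, with tables in pandas 2.3.3 and plots in matplotlib 3.10.9.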

Additional observations from a re-analysis of the deposited data

Results flagged for a closer look

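Reads outside the members' sense counts are given as values only, and no control samples exist to set them against. In replicate 1, 27.5% of reads mapped to several places and 6.79% fell in no feature. In replicate 2 these shares were 29.4% and 6.65%. Opposite-strand counts were 23.0% and 18.7% of the sense and opposite sum over all genes, and the 9 members had none. The unstranded column lists 902374 and 794418 reads as ambiguous, against 0 in the sense column. A read over genes on both strands can enter both the sense and opposite columns, so these shares do not measure antisense RNA. The design, 1 group of 2 libraries, allows no search for outlying samples or for differences between groups.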

How the results depend on the processing

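Of 2 libraries each lies equally far from their mean, so either alone says nothing of stability and its values are given as a range. The miR-106b-25 cluster was at 7862 to 7980 CPM, the miR-106a-363 cluster at 197 to 317, their ratio at 24.8 to 40.4 and that of the Mir17 to the miR-106b-25 cluster at 1.14 to 1.41. The miR-17 seed group was at 14699 to 17058 CPM, the miR-25 group at 1635 to 1956 and the miR-19 group at 5.29 to 11.8, and 7 to 8 members met the detection limit. Levels moved with the total they were divided by. The miR-106b-25 cluster was at 10779 CPM with unstranded counts, 3288 with all reads of the file and 8144 without Mir122, and the miR-106a-363 cluster at 354 and 107 CPM under the first and second of these. Without genes that share a 20-base stretch, the miR-25 seed group was at 607 CPM and the miR-19 group at 2.27. No gene was left in the group of the miR-19b 5p seed, so it has no such value.

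With unstranded counts 1 member was higher and 5 lower in replicate 2, Mir93 turned to a ratio of 0.932 and Mir18b to 0.927, and 74 genes were higher instead of 119. Mir18b was at 1.00 with TMM, just on the other side of 1, and Mir106b at 1.01 without Mir122. The unstranded column summed to 2122450 and 2670655 counts over genes and lists 902374 and 794418 reads as ambiguous, against 0 in the sense column. A ratio of CPM moves with these sums, and the members had 0 opposite-strand counts. Every tested member had a lower ratio than with sense counts, such as Mir106a at 0.438 against 0.481 and Mir363 at 1.85 against 2.03. Which genes the ambiguous reads came from was not tested. With a filter of 1 count or more, Mir93 lost its call. Mir18b and Mir19b-2 were limited by depth, with 13 and 8 counts over both libraries. No paired analysis was possible because the design has 1 group.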
